A study of Rattus norvegicus with 287 samples.

Results

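The genes described here are those that make cholesterol, sense it, store it as esters and take it up from the gut lumen. A set of 29 symbols was matched to the gene symbols of the deposited count table. Of these, 28 were found among 32623 genes, and Lbr, a sterol reductase, was not analysed here. By role, 8 encode enzymes of the mevalonate pathway, 11 enzymes of the branch from squalene to cholesterol, 4 proteins of the sterol-sensing SREBP system, and 5 act in esterification, transport or uptake.

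Cells build cholesterol from acetyl-CoA by way of mevalonate, farnesyl diphosphate, squalene and lanosterol. When sterol in the endoplasmic reticulum is low, SCAP carries the SREBP-2 precursor (the product of Srebf2) to the Golgi, where it is cleaved to a transcription factor that raises most of these genes, and INSIG proteins hold SCAP back when sterol is high. The liver makes and exports much of the body's cholesterol, and the small intestine both makes it and absorbs it through NPC1L1.

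Bulk RNA was sequenced in 287 libraries from 8 rat tissues after focused ultrasound pulses (pFUS) were directed to the porta hepatis, the entry of the portal vessels and nerves into the liver. The stimulus lasted 3 minutes per day at 1.1 MHz, with 200 mV per pulse, 150 burst cycles and a burst period of 500 µs, under isoflurane, and control rats had a sham stimulus without energy. Libraries held 2380545 to 43088790 counts (median 12849617). Each replicate is another rat, named here by the number in its label; ages are not in the labels.

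The obese ZDF groups were male Zucker diabetic fatty rats, which lack a working leptin receptor, treated for 7 weeks (controls 1 to 5, pFUS 6 to 10 in liver and intestine). Lean Zucker rats, male, were treated for 7 weeks too (controls 11 to 15, pFUS 16 to 20 in liver and 16, 18 and 19 in intestine). The DIO-stz groups, also of 7 weeks, held controls 3 and 4 (female) and 5 and 6 (male), and pFUS rats 7 to 10 (male) and 11 (female), so sex is unevenly spread over them and was a term in each DIO-stz fit. The labels also give 2 female DIO Diet Resistant rats with pFUS for 7 weeks, and no control of that kind. Further male obese ZDF groups of 4 rats gave liver, muscle and adipose tissue after 3 days (control, x1 and x10) or 4 weeks (AM only x10, AM & PM x1 and AM & PM x10, with no 4-week control in the labels). The labels do not say what x1 and x10 count.

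Each of the marker genes checked had its highest library in the tissue named in the label. In adipose tissue, obese pFUS 6, lean control 12 and lean pFUS 17, 18 and 19 had Adipoq, which marks fat cells, between 0.162 and 15.6 CPM (counts scaled to the library total), against a median of 4228 CPM in all adipose libraries. The skeletal muscle gene Ckm was between 16510 and 21792 CPM in those 5 libraries, so they go against their label. In adipose tissue of lean control 11 and lean pFUS 16, the kidney genes Umod (474 and 172 CPM) and Slc34a1 (2348 and 2082 CPM) were present, Slc34a1 within the range of the kidney libraries. In the intestine, Fabp6, a gene of the ileum, was at 5687 CPM in obese control 1, 8720 in lean control 11 and 14140 in lean control 14, and the gut segment is not given in the labels. Cela2a, a pancreas gene, reached 1823 CPM in obese pFUS intestine (group median 0) and was at 0 CPM in obese control intestine. It reached 1068 CPM in DIO-stz pFUS adipose tissue, and pancreas libraries held 7893 CPM or more. The part of pancreas RNA in the intestine values was not tested. In such bulk tissue, fewer cells of a type and less RNA per cell cannot be told apart.

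In the obese ZDF rats, the cholesterol genes leaned in opposite directions in the stimulated organ and in the gut at 7 weeks. With pFUS, 24 of the 27 genes tested in liver had an estimate below 0, where 50.4% of all genes did, and 24 of the 28 tested in intestine an estimate above 0, where 44.9% did. The median log2 fold change (pFUS over control) over the set was -0.38 in liver, beside -0.00 over all genes tested, and 0.47 in intestine, beside -0.04. No single gene passed the test in either tissue, and the difference between the tissues passed for 1 gene, Insig2, a call that was lost under several other settings. In the DIO-stz rats 24 of 27 estimates were above 0 in liver, where 54.4% of all genes were, with a median of 0.58 beside 0.03 over all genes, and 18 of 28 in intestine, where 49.2% were, with a median of 0.05 beside -0.01.

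**Figure D1:**
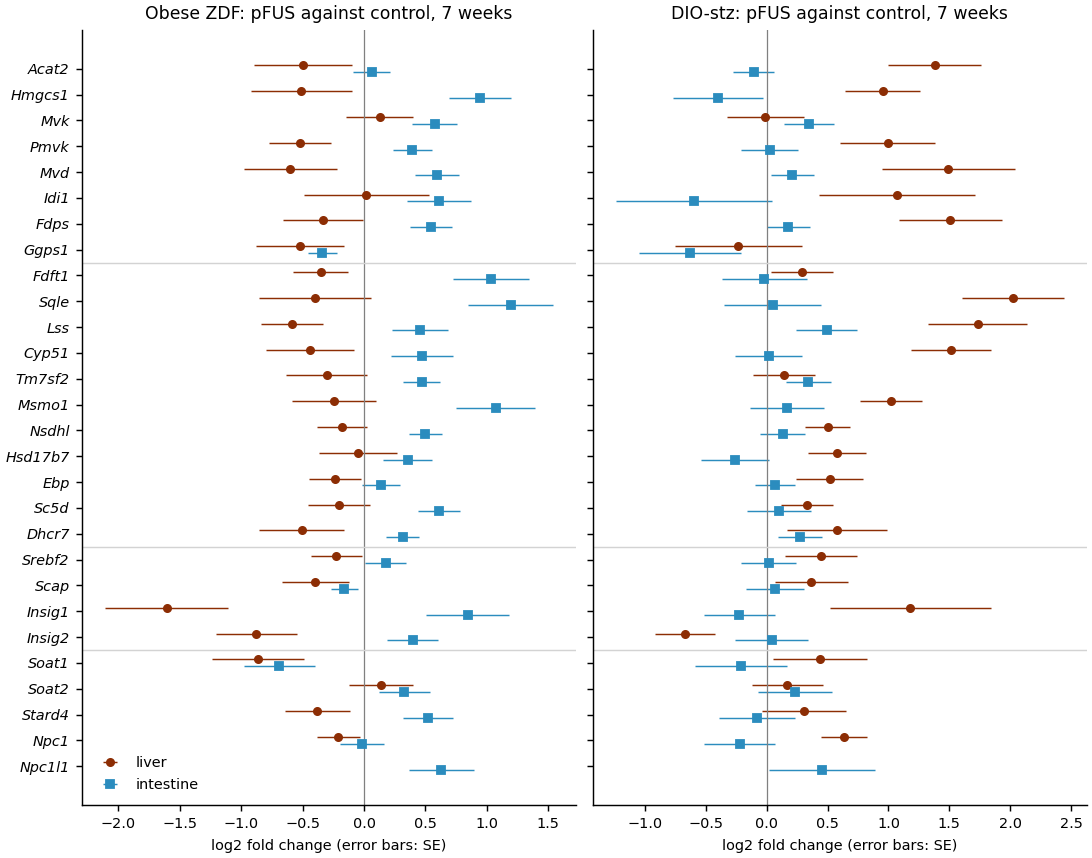
Log2 fold change with pFUS against control at 7 weeks for each of the 28 genes (vertical axis, with grey lines between the roles) in obese ZDF rats (left) and DIO-stz rats (right), in liver (brown circles) and intestine (blue squares), with bars for the standard error (SE). In obese ZDF rats the liver points lie mostly left of 0 and the intestine points mostly right of it, with medians of -0.38 and 0.47. In DIO-stz rats the liver points lie mostly right of 0, with a median of 0.58.

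The tests below are edgeR's quasi-likelihood tests, fitted over all genes of a tissue, with Benjamini-Hochberg adjusted p over all genes tested and a threshold of 0.05, and values after ± are SE for fold changes and SD for CPM. In obese liver, 0 of 27 genes rose and 0 fell, where 0.397% of all 12585 genes passed. At an unadjusted p under 0.05, 0 were higher and 4 lower, where 2.52% and 5.56% of all genes were, and DESeq2 also called 0. By role, 6 of 8 mevalonate enzymes, 11 of 11 enzymes of the sterol branch, 4 of 4 SREBP genes and 3 of 4 transport genes had an estimate below 0, with medians of -0.50, -0.31, -0.64 and -0.29.

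The 4 genes with the smallest p in obese liver were Insig1, Insig2, Soat1 and Lss. Insig1, the sterol-regulated INSIG, was at 689, 481, 177, 587 and 508 CPM in obese controls 1 to 5 and at 93.3, 255, 115, 327 and 58.4 CPM in pFUS 6 to 10. Control 3 lay among the pFUS livers, and the other control livers were above every pFUS liver. The estimate was -1.61 ± 0.50, from 488 ± 192 to 170 ± 115 CPM (n = 5 and 5), with an adjusted p of 0.262 from edgeR. Insig2, the second INSIG, whose liver transcript is known to respond to fasting, was at 282, 123, 368, 207 and 226 CPM in controls and 146, 114, 163, 157 and 114 CPM in pFUS livers, an estimate of -0.88 ± 0.33 (adjusted p = 0.409). All pFUS livers were at 163 CPM or below, and control 2 was the only control in that range.

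Soat1, an acyltransferase that stores cholesterol as esters in macrophages and many other cells, was low in liver, at 1.33, 2.14, 2.25, 1.54 and 2.46 CPM in controls and 0.7, 2, 1.12, 1.42 and 0.415 CPM in pFUS livers (-0.86 ± 0.37, edgeR adjusted p = 0.531). The groups overlapped. The 5 macrophage markers summed to 123.7 to 179.6 CPM in control livers and 60.7 to 145.7 CPM with pFUS, and their part in the Soat1 values was not tested. Lss, which closes squalene epoxide to lanosterol, was at 57.2, 82.7, 45.8, 54.9 and 51.5 CPM in controls and 25.3, 49.7, 44.9, 57.1 and 34.9 CPM with pFUS (-0.59 ± 0.26, adjusted p = 0.538), and these ranges overlapped as well.

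The direction of the set in obese liver was not carried by every library. Within controls, control 3 was the lowest for 19 of 27 genes, and within pFUS livers pFUS 10 was the lowest for 23 and pFUS 9 the highest for 15. The summed CPM of the 19 synthesis enzymes was 1449 to 2676 in control livers and 1048 to 2609 in pFUS livers, so the sums overlapped. Leaving out each library in turn gave medians from -0.55 to -0.18. Clock genes moved with the groups in the same livers: Arntl, a core clock activator, was at 18.1 to 33.4 CPM in controls and 2.13 to 6.02 CPM with pFUS, and Dbp, a clock output gene, at 3.25 to 26.2 and 82.4 to 138 CPM. Their part in the cholesterol values was not tested. Of other sterol genes 0 of 18 passed, with 11 estimates above 0 and a median of 0.05, and of sterol export genes and LXR targets 0 of 9, with 4 above 0 and a median of -0.19. Of fatty acid synthesis genes 0 of 10 passed, with 1 above 0 and a median of -0.53.

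In obese intestine 0 of 28 genes rose and 0 fell under edgeR's test, where 0.0612% of 14709 genes passed. With no adjustment (p under 0.05), 16 of 28 were higher, where 8.34% of all genes were, and 2 were lower, where 10.3% were. DESeq2, which called 3.78% of all genes, called 7 higher, namely Hmgcs1, Mvd, Fdft1, Sqle, Msmo1, Nsdhl and Sc5d. By role, 7 of 8 mevalonate enzymes, 11 of 11 sterol branch enzymes, 3 of 4 SREBP genes and 3 of 5 transport genes had an estimate above 0, with medians of 0.56, 0.47, 0.29 and 0.33. Ggps1, which leads away from sterols to geranylgeranyl diphosphate, and Soat1 were lower in every pFUS intestine than in any control, where 9.96% of all genes were so, and no member was higher in every pFUS library, where 0.415% of all genes were.

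Nsdhl, a sterol dehydrogenase that removes a methyl group on the way from lanosterol, had the smallest p. It was at 53.7, 47.2, 52, 52.3 and 54.1 CPM in controls 1 to 5 and 49.6, 71.6, 66.7, 57.1 and 59.4 CPM in pFUS 6 to 10, an estimate of 0.50 ± 0.13 (edgeR adjusted p = 0.0828). All pFUS intestines but number 6 were above every control. Hmgcs1, which makes HMG-CoA, was at 131, 131, 151, 254 and 176 CPM in controls and 169, 299, 315, 289 and 295 CPM with pFUS (0.95 ± 0.25, adjusted p = 0.0828). Here too pFUS 6 lay within the control range and the other pFUS intestines above it.

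Sc5d, a late desaturase of the pathway, was at 173, 130, 206, 169 and 130 CPM in controls and 131, 237, 247, 202 and 218 CPM with pFUS (0.61 ± 0.17, edgeR adjusted p = 0.0976). Sqle, squalene epoxidase, the first oxygenation step and a rate-limiting enzyme, was at 36, 13.5, 35.2, 40.4 and 36.3 CPM in controls and 28.2, 80.5, 74.6, 56.6 and 74.3 CPM with pFUS (1.20 ± 0.35, adjusted p = 0.101). For Sqle, pFUS 6 alone lay among the controls, and for Sc5d pFUS 6 and 9 did. That rat was the lowest of its group for 22 of 28 genes, and its summed enzymes were 964 CPM, against 1506 to 1843 CPM in the other pFUS intestines and 981 to 1334 CPM in controls.

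Without the libraries holding Fabp6 at 100 CPM or more, 5 genes rose in obese intestine, where 2.59% of all genes passed: Hmgcs1, Pmvk, Fdft1, Msmo1 and Nsdhl. With library sizes alone in place of TMM factors, the median of all genes moved by -0.26, and 1 member passed, Ggps1, which fell, where 11.5% of all genes passed. Smooth muscle markers summed to 1470 to 2991 CPM in controls and 912 to 2068 CPM with pFUS, and Arntl was at 22.8 to 63.2 and 11.5 to 19.9 CPM. The part of either in the cholesterol values was not tested. Of other sterol genes 0 of 18 passed, with 13 above 0 and a median of 0.21, and of export genes and LXR targets 0 of 9, with 6 above 0 and a median of 0.33.

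**Figure D2:**
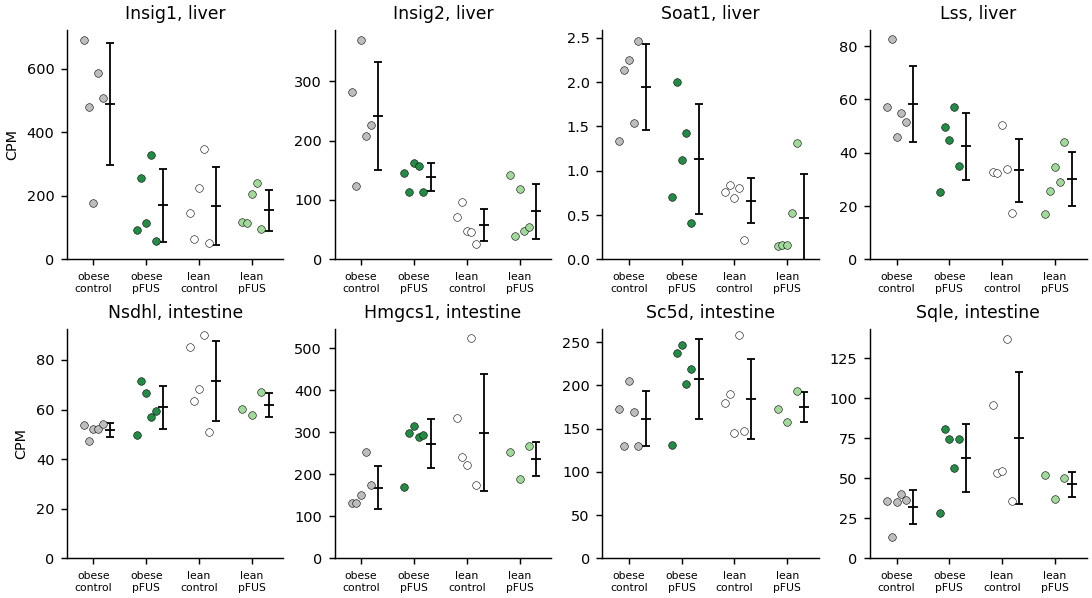
CPM in each library of the 4 genes with the smallest p in obese ZDF liver (top) and intestine (bottom), by group on the horizontal axis, with bars for mean ± SD. Obese controls are grey, obese pFUS dark green, lean controls white and lean pFUS light green. In the top row every obese control liver is above every lean control liver for Insig2 and Soat1, while these groups overlap for Insig1 and Lss, and in the bottom row 1 obese pFUS intestine lies apart from the other 4.

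The difference between the organs was tested directly, as the pFUS effect in liver minus that in intestine. Of 27 genes tested in both tissues, 20 were lower in liver and higher in intestine, 0 the reverse, 4 lower in both and 3 higher in both. In the test over both tissues, 27 of these 27 differences were below 0, where 50.9% of all genes were, with a median of -0.83 beside -0.01 over all genes (Npc1l1, too low to test in liver, is left out of these counts). Insig2 was the only member to pass (-1.28 ± 0.26, edgeR adjusted p = 0.0413), and with the rat number as a replicate block none did (Insig2 -1.25, adjusted p = 0.0689). Without the block 0.183% of 14733 genes passed, 0.17% with a lower effect in liver. At an unadjusted p under 0.05, 13 members were lower, where 7.13% of all genes were. DESeq2 called 3, Insig2, Insig1 and Fdft1, where it called 1.65% of all genes. In edgeR's test no fatty acid synthesis gene passed. Pnpla3 (-2.78 ± 1.17), Elovl6 (-2.23 ± 0.92) and Fasn (-0.69 ± 0.43) were below 0, and Acaca (0.21) and Thrsp (0.47) above it.

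In intestine, Insig2 was at 18.4, 22.5, 24, 28.5 and 25.6 CPM in controls and 23.5, 26.8, 26.4, 28 and 25.4 CPM with pFUS, beside the liver values above. The intestinal groups overlapped, and the difference came with pFUS livers below most control livers. Insig1 in intestine was at 133, 70.6, 115, 147 and 87.8 CPM in controls and 101, 217, 167, 194 and 150 CPM with pFUS, and its difference between organs was -2.46 ± 0.59 (edgeR adjusted p = 0.094). All intestinal pFUS values but that of rat 6 were above every control, and in liver the pFUS values were below every control but number 3.

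Fdft1, squalene synthase, which commits farnesyl diphosphate to sterols, was at 134, 146, 83.3, 141 and 147 CPM in control livers and 88.7, 148, 110, 135 and 67.2 CPM in pFUS livers. In intestine it was at 74.9, 31.4, 39.7, 74.9 and 59.2 CPM in controls and 52, 129, 108, 91.1 and 102 CPM with pFUS, a difference between organs of -1.40 ± 0.39 (edgeR adjusted p = 0.144). The liver groups overlapped, and in intestine pFUS 6 was the only pFUS library in the control range. Pmvk, phosphomevalonate kinase, was at 57.9, 47.3, 26.8, 45.6 and 44.8 CPM in control livers and 33.3, 39.9, 33.4, 39.6 and 20.7 CPM in pFUS livers. In intestine it was at 24.8, 20.3, 17.1, 15.7 and 18 CPM in controls and 19.4, 20.6, 22.5, 22.2 and 19.2 CPM with pFUS (difference -0.92 ± 0.28, adjusted p = 0.185). All but 1 of the control livers were above every pFUS liver for this gene.

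The Insig2 call was lost with the replicate block, without the intestine libraries holding Fabp6 (-1.20, adjusted p = 0.0718) and on leaving out any of 8 of the 10 rats in turn (edgeR adjusted p from 0.0566 to 0.143, with the estimate between -1.12 and -1.35 in these fits). With library sizes alone the median difference over all genes moved by 0.37, the median over the 27 genes was -0.46 and 6 of 27 differences were above 0. Insig1 was then the 1 call, with a lower effect in liver, where 4.66% of all genes passed.

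Promoters were searched for motifs that the choice of members did not use. The RefSeq promoter table (build GRCr8, 250 bases before to 50 bases after each start) held 24 of the 29 symbols, among 27457 promoters. Lbr is among the 24, and Fdft1, Pmvk, Soat2, Sqle and Stard4 had no promoter there. The inverted CCAAT box, written ATTGG and searched on both strands, is the site of NF-Y, a known partner of SREBP. It was found in 19 of 24 (79.2%), against 37.7% of all promoters. A sterol regulatory element written TCACNCCAC, searched on both strands, was in 0 of 24, against 1.13% of all promoters, which says only that these letters are not in these windows. The 200 bases before the start are printed for the leading genes of liver and intestine and for Cyp51, which had no ATTGG match, to show how the matches are placed. They read 5′ to 3′ on the gene's strand, with ATTGG or its reverse complement CCAAT in capitals. Insig1 is at chr4:8057770-8057969 (minus strand), Insig2 at chr13:35040099-35040298 (minus), Lss at chr20:12118231-12118430 (minus), Nsdhl at chrX:155817160-155817359 (plus), Hmgcs1 at chr2:53382104-53382303 (plus) and Cyp51 at chr4:30991493-30991692 (plus).
Insig1: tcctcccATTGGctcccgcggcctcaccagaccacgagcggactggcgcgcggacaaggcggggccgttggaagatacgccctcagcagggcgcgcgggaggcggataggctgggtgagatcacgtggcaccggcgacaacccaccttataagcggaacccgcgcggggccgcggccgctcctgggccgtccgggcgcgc
Insig2: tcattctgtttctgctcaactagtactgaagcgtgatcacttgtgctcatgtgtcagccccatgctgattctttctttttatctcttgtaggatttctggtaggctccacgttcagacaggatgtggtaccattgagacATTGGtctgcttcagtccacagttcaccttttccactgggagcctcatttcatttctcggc
Lss: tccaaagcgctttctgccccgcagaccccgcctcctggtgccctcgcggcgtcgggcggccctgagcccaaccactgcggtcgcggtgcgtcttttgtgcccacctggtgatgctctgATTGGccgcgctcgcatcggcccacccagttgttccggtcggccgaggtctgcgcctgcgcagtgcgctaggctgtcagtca
Nsdhl: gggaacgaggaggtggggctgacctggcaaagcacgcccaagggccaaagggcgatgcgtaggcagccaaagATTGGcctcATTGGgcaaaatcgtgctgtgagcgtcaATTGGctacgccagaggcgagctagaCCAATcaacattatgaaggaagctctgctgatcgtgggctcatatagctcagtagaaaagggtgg
Hmgcs1: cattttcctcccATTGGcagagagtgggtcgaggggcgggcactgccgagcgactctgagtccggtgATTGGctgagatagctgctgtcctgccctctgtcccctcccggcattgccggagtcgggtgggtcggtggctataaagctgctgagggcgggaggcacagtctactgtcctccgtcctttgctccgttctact
Cyp51: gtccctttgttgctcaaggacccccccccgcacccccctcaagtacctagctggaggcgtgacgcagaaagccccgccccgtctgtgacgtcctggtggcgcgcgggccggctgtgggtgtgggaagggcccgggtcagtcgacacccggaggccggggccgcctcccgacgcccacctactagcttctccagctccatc
Nsdhl held 4 matches in this window, Hmgcs1 2, and Insig1, Insig2 and Lss 1 each. The printed genes were picked to show placement, so their numbers of matches are not compared between liver and intestine. Such matches describe the letters only.

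The lean Zucker rats give the same stimulus without obesity. In lean liver 0 of 27 genes rose and 0 fell, where 0.389% of all genes passed, and 18 of 27 estimates were above 0, where 46.4% were, with a median of 0.13 beside -0.04 over all genes. With no adjustment (p under 0.05), 3 were higher and 1 lower, where 8.38% and 15.5% of all genes were, and DESeq2 called 1, Stard4, and 8.16% of all genes. Stard4, a carrier of cholesterol between membranes, was at 34.6, 28.2, 31.9, 30 and 7.71 CPM in controls 11 to 15 and 9.76, 5.83, 13.9, 11.6 and 15.7 CPM in pFUS 16 to 20 (-0.996 ± 0.269, edgeR adjusted p = 0.0627). Control 15 was the only control within the pFUS range. Pmvk was the second (0.72 ± 0.25, adjusted p = 0.102), from 33.4 ± 7.37 to 49.2 ± 9.49 CPM.

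Lean control liver 15 stood apart. It was the lowest of its group for 16 of 27 genes and held Myh11, a smooth muscle gene, at 85.2 CPM. Without it, 7 members passed in lean liver under edgeR, where 38.7% of all genes did: Ebp, Mvd, Pmvk, Dhcr7, Scap and Soat2 rose, and Stard4 fell. Arntl was at 0.436 to 1.46 CPM in lean control and 1.91 to 7.36 CPM in lean pFUS livers, and its part was not tested. In lean intestine 0 of 28 passed, where 0.0068% of all genes did, 5 estimates were above 0, where 42.6% were, with a median of -0.26. At an unadjusted p under 0.05, 2 were higher and 5 lower, where 4.55% and 6.6% of all genes were, and DESeq2 called 0. Smooth muscle markers summed to 1588 to 3273 CPM in lean control and 1366 to 1442 CPM in lean pFUS intestines, without overlap, and proximal small intestine markers to 2727 to 23798 CPM (median 6876) and 21035 to 27065 CPM (median 21523). Their part in the cholesterol values was not tested. Insig2 (0.70 ± 0.24) and Ebp, the sterol isomerase (-0.53 ± 0.18), had the smallest p there, with an edgeR adjusted p of 0.416 for both.

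Whether pFUS acted differently in obese and lean rats was tested as an interaction. In liver 0 of 27 members passed, where 0.405% of all genes did, 5 differences (obese minus lean) were above 0, where 52.5% were, 7 were lower at an unadjusted p under 0.05, where 6.17% were, and the median was -0.43 beside 0.03 over all genes. Pmvk (-1.24 ± 0.36, edgeR adjusted p = 0.117) and Insig2 (-1.62 ± 0.47, adjusted p = 0.121) had the smallest p, and DESeq2 called these 2, and 2.58% of all genes. Without obese pFUS 7 and lean control 15, 9 passed, where 27.3% of all genes did: the effect was lower in obese liver for Insig2, Ebp, Mvd, Pmvk, Dhcr7, Scap, Tm7sf2 and Fdft1 and higher for Stard4. Without lean control 15 alone, 7 passed, where 21.1% of all genes did. Clock genes passed the same interaction test in liver with all libraries. Arntl was at -5.18 ± 0.57 (edgeR adjusted p = 6.5e-05) and Dbp at 3.45 ± 0.58 (adjusted p = 0.0067), and their part in the cholesterol values was not tested. No fatty acid synthesis gene passed in liver with all libraries. Pnpla3 (-3.62 ± 1.15), Scd (-2.23 ± 0.63) and Fasn (-1.87 ± 0.56) were below 0, and Acaca (0.28), Elovl6 (0.06) and Thrsp (0.02) above it. In intestine 0 of 28 passed, where 0.0068% did, and 23 differences were above 0, where 50.9% were. Of these 15 had an unadjusted p under 0.05, where 6.12% of all genes did, and the median was 0.65. Mvd, which makes isopentenyl diphosphate (1.19 ± 0.27), and Fdps, farnesyl diphosphate synthase (1.02 ± 0.27), led, each with an edgeR adjusted p of 0.316, and DESeq2 called 1, Mvd, and 0.313% of all genes. The lean intestines with the marker sums given above enter this difference.

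Without the stimulus, obese and lean livers differed in the genes that led the pFUS comparison. Obese control livers had 4 of 27 members higher and 0 lower than lean controls, where 14.3% of all genes passed and 8.14% were higher. Counting both directions, members were called about as often as genes at large. Insig2 rose most (2.10 ± 0.34, edgeR adjusted p = 0.000292), at 241 ± 91.3 CPM in obese and 57.7 ± 26.6 CPM in lean controls (n = 5 and 5), and every obese control was above every lean one, as for 5.81% of all genes. Soat1 was at 1.95 ± 0.482 and 0.663 ± 0.255 CPM (1.57 ± 0.41, adjusted p = 0.0141), also without overlap. The 5 macrophage markers summed to 123.7 to 179.6 CPM in obese and 32.8 to 118.8 CPM in lean control livers, without overlap as well, and their part in the Soat1 values was not tested. Insig1 (1.60 ± 0.50, adjusted p = 0.0366) and Lss (0.88 ± 0.26, adjusted p = 0.0257) rose with overlapping libraries, and both calls were lost when obese control 2, lean control 11 or lean control 12 was left out. Insig1 was also lost without obese control 1, 4 or 5 or lean control 15. Arntl was at 18.1 to 33.4 CPM in obese and 0.436 to 1.46 CPM in lean control livers, and its part in these values was not tested. Both comparisons share the obese controls, so the same high control values enter each.

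With pFUS, obese livers held Insig2 at 139 ± 23.6 CPM, between the obese and lean controls. Fatty acid synthesis genes were higher in obese control livers as a group, with 8 of 10 past the threshold, led by Pnpla3 (5.77), Elovl6 (4.93) and Scd (3.76). Of export genes Abcg5 (-2.72) and Abcg8 (-4.20), which send sterol into bile, fell, and of other sterol genes Por (-2.31) and Erlin1 (-1.05) fell and Acat1 (0.42) rose. In intestine, obese against lean controls gave 0 of 28, where 0.0136% passed, with 12 lower and 0 higher at an unadjusted p under 0.05, where 6.79% and 7.27% of all genes were, and 2 calls by DESeq2, which called 1.01% of all genes. Fdft1 was at 56 ± 20 CPM in obese and 131 ± 60.8 CPM in lean control intestine (-1.19 ± 0.31, edgeR adjusted p = 0.2), and Idi1, isopentenyl diphosphate isomerase, at 45.5 ± 14.3 and 102 ± 31.6 CPM (-1.14 ± 0.26, adjusted p = 0.169). Leaving out lean control 15 gave 4 lower calls, where 1.28% of all genes passed. Proximal small intestine markers had a median sum of 14633 CPM in obese and 6876 CPM in lean control intestines. Fabp6 reached 5687 CPM in obese and 14140 CPM in lean controls. The part of the gut segment in these values was not tested.

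In DIO-stz liver, 1 of 27 genes rose with pFUS and 0 fell, where 1.15% of 12870 genes passed and 0.357% rose. With no adjustment (p under 0.05), 12 were higher and 1 was lower, where 4.41% and 5.2% of all genes were. By role, 6 of 8 mevalonate enzymes, 11 of 11 sterol branch enzymes, 3 of 4 SREBP genes and 4 of 4 transport genes had estimates above 0, with medians of 1.03, 0.58, 0.41 and 0.37. Sqle was the gene that rose (2.02 ± 0.42, edgeR adjusted p = 0.0467). DESeq2, which called 2.94% of all genes, called 7 higher: Sqle, Cyp51, Lss, Msmo1, Fdps, Acat2 and Npc1.

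Sqle was at 21.5 and 27.3 CPM in control females 3 and 4 and at 2.56 and 0.72 CPM in control males 5 and 6. With pFUS it was at 7.43, 5.63, 14.6 and 4.49 CPM in males 7 to 10 and 69.7 CPM in female 11. Females were above males in both groups, and within each sex every pFUS liver was above every control liver. The fold change is the estimate with the sex term: the plain group means were 20.4 ± 27.9 and 13 ± 13.4 CPM (n = 5 and 4).

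Cyp51, the lanosterol demethylase, was at 261, 301, 51.4 and 31.6 CPM in controls 3 to 6 and at 150, 75.4, 204, 133 and 460 CPM in pFUS 7 to 11 (1.51 ± 0.33, edgeR adjusted p = 0.058), with the same order within each sex. Lss was at 17.9, 16.9, 26.7 and 9.98 CPM in controls and 55.2, 34.8, 37.6, 32.3 and 102 CPM with pFUS (1.73 ± 0.41, adjusted p = 0.0832). Every pFUS liver was above every control for Lss, the only member without overlap, where 0.684% of all genes were higher in that way. Msmo1, a methylsterol oxidase, was at 57.3, 70.2, 27.3 and 15.4 CPM in controls and 37.7, 30.4, 40.5, 31.6 and 154 CPM with pFUS (1.02 ± 0.25, adjusted p = 0.106), and within each sex every pFUS liver was again above the controls.

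Levels in DIO-stz liver went with sex. Both control females were above both control males for 17 of 27 members, where 29.2% of 11471 genes with a mean of at least 1 CPM were, and the reverse held for 0, where 14.8% of genes were. All 4 pFUS males were above both control males for Fdps, Sqle, Lss, Cyp51 and Msmo1, 5 of 27, where 3.65% of genes were. The pFUS female was above both control females for 23 members, where 16.8% of genes were, and below both for Ggps1, Dhcr7, Insig2 and Soat2, where 68% were. That rat was the highest of its group for 22 of 28 genes, so its values weigh on every estimate: with male libraries alone 0 members passed, the median was 0.36 and Sqle was 2.18 with an adjusted p of 0.642.

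The Sqle call was lost with no sex term, with library sizes alone, with the 2 groups fitted alone, with edgeR's earlier quasi-likelihood method and on leaving out any library but pFUS 10. Leaving out control 5 gave 3 calls, Lss, Msmo1 and Insig1, which rose, where 0.991% of all genes passed. Fatty acid synthesis genes rose in these livers, 7 of 10 with all 10 estimates above 0 and a median of 2.64: Fasn, fatty acid synthase, was at 10.4 to 120 CPM in controls and 421 to 2250 CPM with pFUS, without overlap. With males alone 0 of these 10 passed, and without pFUS female 11, 3 did. Of other sterol genes 0 of 18 passed, with 9 above 0, and of export genes and LXR targets 0 of 9, with 5 above 0.

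**Figure D3:**
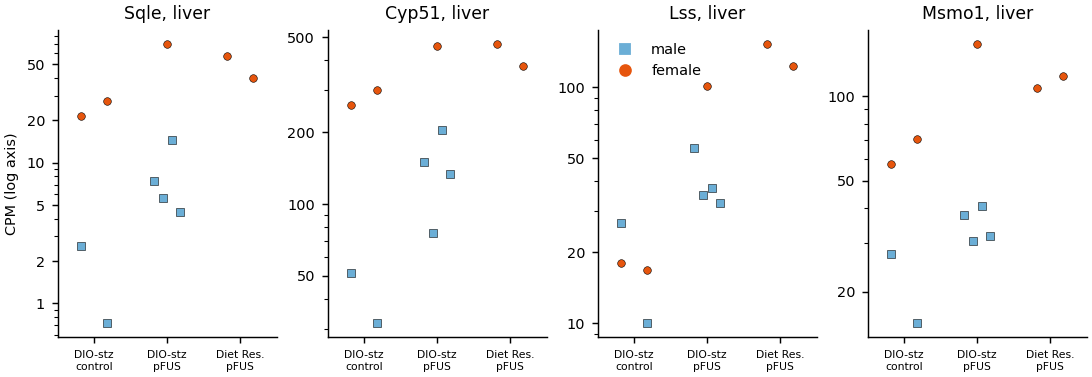
CPM (log axis) of the 4 genes with the smallest p in DIO-stz liver, in each library of DIO-stz control, DIO-stz pFUS and DIO Diet Resistant pFUS rats at 7 weeks. Males are blue squares and females orange circles. Within each sex the pFUS livers lie above the controls for Sqle, Cyp51, Lss and Msmo1, and the 1 pFUS female is the highest DIO-stz liver in all 4 panels.

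In DIO-stz intestine 0 of 28 genes passed under edgeR's test, as did 0% of 14833 genes, and at an unadjusted p under 0.05, 0 were higher and 0 lower, where 1.79% and 2.03% of all genes were. DESeq2 called 0. Lss was at 31, 36.8, 67.2 and 28.9 CPM in controls 3 to 6 and 42.7, 60.8, 83.4, 49.9 and 56.3 CPM in pFUS 7 to 11 (0.49 ± 0.25, adjusted p = 0.927), and the groups overlapped. Tm7sf2, a sterol reductase, was at 50.4, 46.7, 46.9 and 38.8 CPM in controls and 66.3, 70.1, 60, 50.7 and 43.4 CPM with pFUS (0.34 ± 0.18), with pFUS 11 alone among the controls.

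Mvk, mevalonate kinase, was at 11.5, 9.5, 10.6 and 10.2 CPM in controls and 14.1, 15.6, 15.7, 9.03 and 11.9 CPM with pFUS (0.35 ± 0.21). Dhcr7, the last reductase before cholesterol, was at 122, 104, 117 and 127 CPM in controls and 139, 136, 204, 117 and 128 CPM with pFUS (0.27 ± 0.18). For both genes pFUS 10 was the only pFUS intestine not above every control. Fabp6 was above 100 CPM in controls 3, 4 and 6 and in pFUS 7 and 9, at up to 6893 CPM. Without these 5 libraries the Lss estimate turned to -0.18. That fit kept only control 5 among the controls, which had the highest control value of Lss (67.2 CPM).

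In the test of liver against intestine in DIO-stz rats, 0 of 27 members tested in both tissues passed, where 0.265% of 14727 genes did, 23 of 27 differences were above 0, where 48.3% were, and the median was 0.58 beside -0.02. At an unadjusted p under 0.05, 8 were higher, where 2.44% of all genes were, and DESeq2 called 0. Of the 27 genes tested in both tissues, 9 were higher in liver and lower in intestine, 2 the reverse, 15 higher in both and 1 lower in both. Cyp51 led (1.46 ± 0.47, edgeR adjusted p = 0.458): its intestinal values were 286, 291, 279 and 140 CPM in controls and 129, 310, 262, 214 and 226 CPM with pFUS.

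Sqle in intestine was at 65, 98, 58.1 and 45.5 CPM in controls and 21.9, 92.5, 104, 55 and 49.1 CPM with pFUS (difference 1.98 ± 0.65). Acat2, which condenses acetyl-CoA at the entry of the pathway, was at 8.83, 7.51, 3.54 and 1.44 CPM in control livers and 8.35, 3.63, 5.53, 3.51 and 24.2 CPM with pFUS, and at 22.7, 26.3, 27.5 and 23.4 and 17, 27, 28.7, 21.9 and 21.4 CPM in intestine (1.43 ± 0.46). The intestinal groups overlapped for both genes. Hmgcs1 was at 148, 120, 83.6 and 130 CPM in control livers and 118, 92.1, 265, 154 and 343 CPM with pFUS, and at 225, 325, 230 and 131 and 50.9, 201, 204, 176 and 143 CPM in intestine (1.33 ± 0.52). In intestine its pFUS values lay in the lower part of the control range or below it. The edgeR adjusted p was 0.476, 0.495 and 0.656 for Acat2, Sqle and Hmgcs1.

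Set side by side, 22 of 27 members were lower in obese ZDF liver and higher in DIO-stz liver. Mvk, Idi1 and Soat2 had an estimate above 0 in obese liver, and Mvk, Ggps1 and Insig2 an estimate below 0 in DIO-stz liver. Insig2 was below 0 in both models, at -0.88 ± 0.33 and -0.67 ± 0.25. The models were fitted apart and the difference between them was not tested.

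The shorter obese ZDF experiments used other rats. After 3 days, the x10 group differed from the 3-day controls in 2 of 27 liver genes, where 2.08% of 12381 genes passed. Insig2 fell (-1.03 ± 0.24, edgeR adjusted p = 0.0249), at 322, 320, 246 and 288 CPM in controls 41 to 44 and 142, 103, 220 and 125 CPM in pFUS 37 to 40. Npc1, which moves cholesterol out of lysosomes, rose (0.47 ± 0.10, adjusted p = 0.00666), at 78.6, 102, 107 and 113 CPM in controls and 150, 139, 142 and 139 CPM with pFUS. Neither gene's groups overlapped, as for 4.6% of all genes upward and 2.76% downward. Arntl was at 18.6 to 45.7 CPM in these controls and 0.978 to 4.95 CPM with x10, and its part was not tested. Leaving out any of 6 of these 8 libraries (controls 41, 42 and 44, pFUS 37, 38 and 40) ended the Insig2 call with estimates from -1.02 to -0.88, and with the 2 groups fitted alone the adjusted p of Npc1 was 0.0945.

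The x1 group after 3 days had 0 of 27 calls, where 1.33% of all genes passed. Insig2 was again lowest by p, at 156, 146, 220 and 171 CPM in pFUS 33 to 36, all below the 3-day controls, as for 3.22% of all genes (-0.74 ± 0.24, edgeR adjusted p = 0.13). With no adjustment (p under 0.05), 1 was lower and 0 were higher, and DESeq2 called 1, and 2.47% of all genes. Both 3-day comparisons share their controls. Among other genes, Por, the reductase that supplies electrons to Cyp51 and Sqle, rose in the x10 livers (1.52 ± 0.30, adjusted p = 0.00858), and Gpam, a glycerolipid acyltransferase, fell (-1.28 ± 0.19, adjusted p = 0.000616).

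At 4 weeks the schedules could be compared only with each other. With x10, stimulation in AM & PM against AM only gave 6 of 27 genes higher and 0 lower in liver, where 1.88% of all genes passed and 0.654% rose, with 21 estimates above 0, where 49.7% were, and a median of 0.46 beside -0.00. Msmo1 rose (1.15 ± 0.27, edgeR adjusted p = 0.0374), at 30.1, 29.4, 20.4 and 25.7 CPM in AM only rats 25 to 28 and 36.4, 45.5, 107 and 43.6 CPM in AM & PM rats 29 to 32. Hsd17b7, the ketosteroid reductase of the branch, rose from 11.1, 12.5, 13 and 14.3 CPM to 17.8, 25.4, 37.7 and 23.2 CPM (1.04 ± 0.26, adjusted p = 0.0427). Both were without overlap, and rat 31 was the highest. Arntl was at 13.5 to 29 CPM with AM only and 2.73 to 10.2 CPM with AM & PM, and its part was not tested.

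Stard4 (0.67 ± 0.17, edgeR adjusted p = 0.0435) and Fdft1 (0.61 ± 0.15, adjusted p = 0.0437) rose as well, at 24.7 ± 2.44 and 38.7 ± 9.02 CPM and at 90 ± 9.52 and 135 ± 34.8 CPM (n = 4 and 4). Ebp (0.51 ± 0.11) and Npc1 (0.38 ± 0.09) were the other calls. In all, 7 members were higher without overlap, where 3.81% of genes were. Insig2 ran the other way, from 165, 243, 328 and 290 CPM with AM only to 178, 124, 105 and 145 CPM with AM & PM (-0.86 ± 0.24, adjusted p = 0.0639). Rat 31 was the highest of its group for 23 of 27 genes. The calls were few without single libraries: 0 or 1 gene passed on leaving out AM only 25, 26 or 27 or AM & PM 30, 31 or 32. The count was 2 with no filter on low counts, 2 with those groups alone, 3 with library sizes alone and 11 by DESeq2, where 0.883%, 0.691%, 1.73% and 3.32% of all genes passed.

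In AM & PM rats, x10 against x1 gave 0 of 27, where 0.985% of all genes passed, with 21 estimates above 0, where 50.7% were, and 7 higher at an unadjusted p under 0.05, where 7.86% of all genes were. Srebf2 (0.35 ± 0.11, edgeR adjusted p = 0.115) and Msmo1 (0.87 ± 0.27, adjusted p = 0.116) led, and DESeq2 called 1, and 2.37% of all genes.

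**Figure D4:**
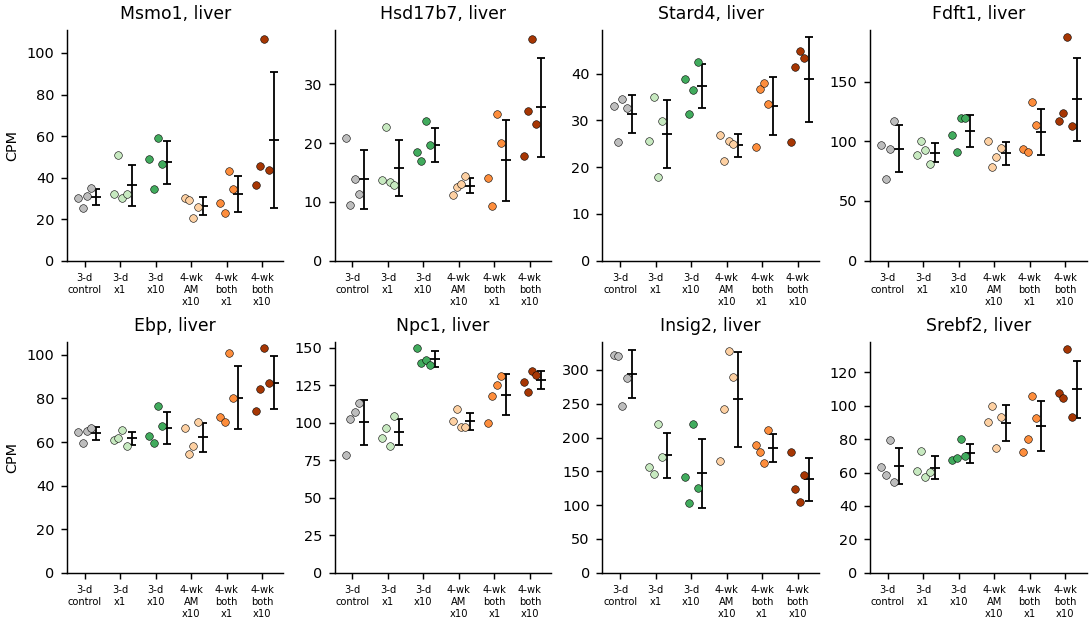
CPM in each obese ZDF liver library of the 3-day groups (control, x1, x10) and the 4-week groups (AM only x10, AM & PM x1 and AM & PM x10, with AM & PM written as both) for 8 genes, with bars for mean ± SD of 4 rats. The 3-day x10 livers stand above controls for Npc1 and below them for Insig2, and the AM & PM x10 livers stand above the AM only x10 livers for Msmo1 and Hsd17b7.

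Levels of these genes differed widely between tissues. In obese 7-week controls, 12 of 28 members were highest by median CPM in brain (hypothalamus in the study's design text), 10 in liver, 5 in intestine and 1, Soat1, in kidney, and 25 were lowest in blood. Libraries of the highest and the next tissue did not overlap for Mvd, Sqle, Msmo1, Srebf2 and Scap in brain, for Nsdhl, Ebp, Dhcr7 and Insig2 in liver, and for Soat2, Stard4 and Npc1l1 in intestine. For the other 16 the libraries of the first and the next tissue overlapped. Pancreas and adipose libraries came from a total RNA kit and the others from an mRNA kit, which cannot be told apart from the tissue, and the adipose libraries that go against their label enter there.

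The median of Nsdhl was 477 CPM in liver and 52.3 CPM in intestine, the next tissue, and that of Insig2 226 and 24 CPM. Npc1l1, the target of the drug ezetimibe, was at a median of 679 CPM in intestine and at 0.74 CPM in the next tissue, adipose. In liver its counts were too low for the test. Soat2, the acyltransferase of enterocytes and hepatocytes, was at 122 CPM in intestine and 46.4 CPM in liver, and Stard4 at 91.7 and 32.1 CPM. Sqle was at 92 CPM in brain and 36 CPM in intestine. These are levels per library, not per length, and are compared between tissues for each gene only.

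**Figure D5:**
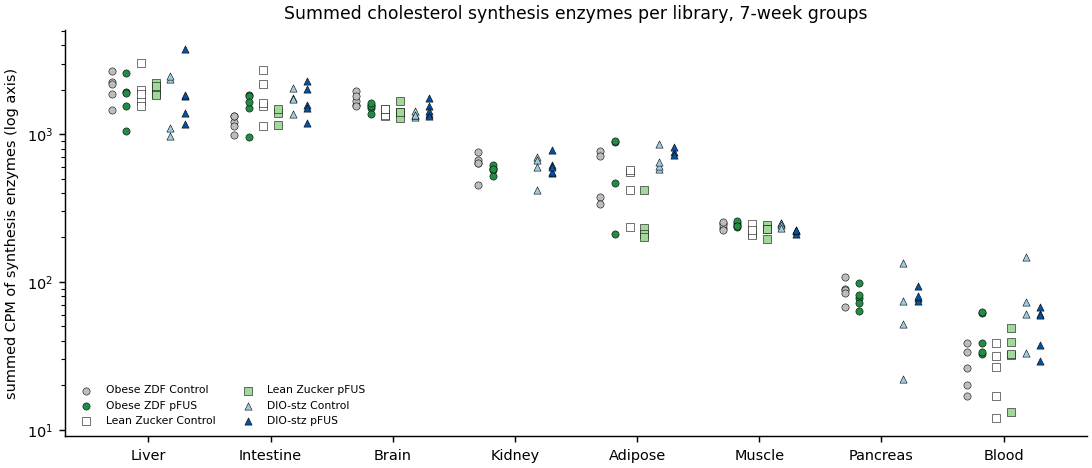
Summed CPM of the 19 synthesis enzymes in each 7-week library (log axis), by tissue on the horizontal axis and by model and treatment (symbols). Liver, intestine and brain lie highest, kidney and adipose tissue between, and muscle, pancreas and blood lowest, and within each tissue most of the control and pFUS points overlap.

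In the other tissues no member passed with pFUS in any model at 7 weeks, nor in muscle or adipose tissue at 3 days or 4 weeks, with edgeR. Of all genes, 0.105% passed in obese pFUS kidney, 0.119% in muscle and 0.0616% in pancreas, and 0% in adipose tissue, blood and brain. In lean rats 0% passed in adipose tissue, blood, brain and muscle. In DIO-stz rats 0.159% passed in kidney, 0.992% in pancreas, 0.0464% in adipose tissue, 0.0277% in blood and 0% in brain and muscle. After 3 days 0.0314% (x1) and 0.628% (x10) passed in muscle and 0.0216% and 0.0503% in adipose tissue, and 0% in either tissue at 4 weeks. At an unadjusted p under 0.05, 11 of 27 members were lower in adipose tissue after 3 days of x10, the highest such count in these tissues, where 4.51% of all genes were. DESeq2 called 1 member there, in 3-day x10 muscle and in the kidneys of obese ZDF and DIO-stz rats, where it called 0.302%, 3.23%, 0.711% and 3.01% of all genes.

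Among the 7-week groups of these tissues, DIO-stz kidney held the smallest adjusted p: Soat1 was at 15.1 ± 6.76 CPM in DIO-stz controls and 28.4 ± 7.84 CPM with pFUS (n = 4 and 5; 0.97 ± 0.23, adjusted p = 0.133). Srebf2 had the smallest p in obese pFUS kidney (-0.51 ± 0.13, adjusted p = 0.287), from 66 ± 10.8 to 44.3 ± 4.57 CPM. It was also first in obese pFUS muscle (-0.41 ± 0.17) and obese pFUS pancreas (-0.32 ± 0.15), with adjusted p of 0.835 and 0.646 from edgeR, and in 3-day x10 muscle (-0.55 ± 0.18, adjusted p = 0.131).

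Sqle had the smallest p of the members in obese pFUS brain, at 73 ± 5.45 CPM against 95.1 ± 6.89 CPM in obese controls (-0.32 ± 0.14, edgeR adjusted p = 1). In adipose tissue after 3 days of x10, Insig1 was at 521 ± 283 CPM against 1039 ± 120 CPM in controls (-1.16 ± 0.29, adjusted p = 0.249). In DIO-stz muscle Insig1 was at 35 ± 9.48 CPM in controls and 18 ± 4.45 CPM with pFUS (-0.97 ± 0.25, adjusted p = 0.272). The lean pFUS adipose values of Insig1 and Dhcr7, with the largest estimates (-2.25 and -2.65), are from a group in which 3 of 4 libraries go against their label, and leaving out pFUS 16, which held kidney genes and whose absence leaves those 3, gave 4 lower calls, where 13.6% of all genes passed.

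Among comparisons of obese with lean controls, muscle held the highest count of calls, though members were called less often there than genes at large. Obese against lean control muscle gave 6 of 26 genes higher and 5 lower, where 52.6% of all 12577 genes passed, 27% higher and 25.5% lower. Fdps (1.12 ± 0.22), Dhcr7 (1.06 ± 0.42), Mvd (1.03 ± 0.31), Mvk, Pmvk and Nsdhl rose, and Srebf2 (-1.21 ± 0.18, edgeR adjusted p = 2.75e-05), Hsd17b7, Hmgcs1, Npc1 and Scap fell. Srebf2 was at 30.5 ± 3.67 CPM in obese and 76.5 ± 7.84 CPM in lean control muscle (n = 5 and 4). The calls numbered 6 or 7 on leaving out obese control 1 or 2 or lean control 13. In blood Scap was the 1 call (-0.51 ± 0.12, adjusted p = 0.0215), lower in obese controls, where 3.16% of genes passed and 0.819% were lower, and it was lost with library sizes alone, with the 2 groups fitted alone, with no filter on low counts and on leaving out obese control 4 or lean control 11, 14 or 15.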

How the data were processed

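RNA was measured in 287 libraries. The authors deposited expected counts per gene, here whole numbers, made with STAR 2.5.3a, RSEM and the build Rnor_6.0 by the submitters' processing notes. Isoform values were not used. Per the labels' protocols, kits were stranded, for mRNA or, in pancreas and fat, total RNA. No source used here states whether strand entered the counting.

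CPM is the count scaled to the library total, without gene length. Fits used edgeR 4.0.16 (R 4.3.3) per tissue (TMM factors, filterByExpr with a minimum count of 10, robust quasi-likelihood F tests). All 7-week Zucker groups shared a fit, as did all 7-week DIO groups (with sex) and all shorter groups. Liver minus intestine was an interaction over both tissues. Replicates within a tissue are different rats, so p-values of the fits per tissue measure the spread between rats. The main test of liver minus intestine took all libraries as independent, though the same numbers occur in both tissues. Leaving out a rat there removed the libraries of its number in both tissues. DESeq2 1.42.0, RLE factors, no filter, only the 2 groups compared, male libraries, no sex term, a replicate block, and leaving out libraries were alternatives, with library sizes alone, edgeR's earlier method and some left-out Fabp6 libraries added after the data were seen. Scripts were tested on simulated data. The members, lists and tests were chosen with earlier results of these data known. Named with each library's value are the 4 members with the smallest p in liver, intestine and their difference, and elsewhere up to 4 members past the threshold, or the 2 with the smallest p, with others marked by counts. Python 3.11.15 and matplotlib 3.10.9 drew figures. Promoters came from RefSeq (GRCr8), matched by symbol.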

Additional observations from a re-analysis of the deposited data

Results flagged for a closer look

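In 8 of 56 groups of library values tested for a lone sample, 1 library lay far from the rest of its group; chance flags about 1 in 20. In obese pFUS intestine 6, Hmgcs1 was at 169 CPM, below the other pFUS rats, and in obese control intestine 2, Sqle was at 13.5 CPM, below the other controls. Obese control liver 3 had Fdft1 at 83.3 CPM, below its group. The DIO-stz pFUS female 11 had Sqle at 69.7, Msmo1 at 154 and Acat2 at 24.2 CPM in liver, above the 4 males of the group. In DIO-stz intestine, Dhcr7 was at 204 CPM in pFUS 9, above its group, and Cyp51 at 140 CPM in control 6, below its group.

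For Insig2, the difference of the pFUS effects in liver and intestine of obese ZDF rats (-1.28, liver minus intestine) passed edgeR's test, and this call was lost with a replicate block, without the Fabp6 libraries and on leaving out any of 8 of the 10 rats. Fdft1 had an estimate above 0 in adipose tissue (0.21) and below 0 in muscle (-0.24) of DIO-stz rats, neither past the threshold, and the difference was not tested.

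The 2 DIO Diet Resistant pFUS females, which have no control of their kind, were above every DIO-stz control liver for 14 of 27 members, where 5.45% of genes were, and below every one for Insig2 alone, where 15.8% were. Sqle was at 57.9 and 40.1 CPM, Cyp51 at 468 and 379, Lss at 152 and 123 and Msmo1 at 107 and 118. Set against the DIO-stz control females alone, they were above both for 16 of 27 members, where 11.9% of genes were. Model and stimulus cannot be told apart there.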

How the results depend on the processing

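Among 105 results for single genes, 1546 of 1687 values under other settings kept direction and side of the threshold, 95 fell back over it, 43 passed it and 3 turned sign: Mvd in obese against lean adipose (0.069 without libraries holding Ckm or Umod), Lss in DIO-stz intestine (-0.18 without Fabp6 libraries) and Ebp in DIO-stz blood (-0.37 with library sizes alone). The DIO-stz intestine fit without Fabp6 libraries kept only control 5 among the controls. Causes were not tested. The counts in this section are of members alone, without the share of all genes beside them. That share rose under some of the same settings, as given above. A higher count is thus not a result about the members. With DESeq2 the count of members called was 1 in lean pFUS liver, obese minus lean intestine, obese pFUS kidney, DIO-stz kidney, 3-day x1 liver, 4-week x10 against x1 liver, 3-day x10 muscle and 3-day x10 adipose, 2 in obese minus lean liver and in obese against lean intestine, 3 in obese liver minus intestine, 7 in obese pFUS intestine, 7 in DIO-stz liver and 11 in 4-week x10 AM & PM against AM only liver. With library sizes alone it was 1 in lean pFUS liver, obese pFUS intestine and DIO-stz pancreas, 0 in DIO-stz liver and blood of obese against lean, and 3 for the 4-week schedules. With only the groups compared it was 2 for obese against lean liver and the 4-week schedules, 7 for obese against lean muscle, 1 in 3-day x1 liver and 0 in obese against lean blood and DIO-stz liver. With no filter it was 0 in blood and 2 for the 4-week schedules. In DIO-stz liver it was 0 with edgeR's earlier method, with males alone and with no sex term. Without obese pFUS 7 and lean control 15 it was 8 in lean pFUS liver and 9 in obese minus lean liver. Without Fabp6 libraries it was 5 in obese pFUS intestine and 0 in obese liver minus intestine.

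Leaving out each replicate gave 0 to 7 calls in lean pFUS liver and obese minus lean liver, 2 to 5 in obese against lean liver, 0 to 1 in obese pFUS and lean pFUS intestine, 0 to 4 in obese against lean intestine and lean pFUS adipose, 0 to 2 in blood, 6 to 11 in muscle (obese against lean), 0 to 3 in DIO-stz liver, 1 to 3 in 3-day x10 liver, 0 to 7 for the 4-week schedules and 0 to 1 in obese liver minus intestine.

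With the rat number as a replicate block, obese liver minus intestine gave 0 calls (median -0.89), 0 also without control 5 and pFUS 8 and 9 (left out since their numbers may differ between tissues), and DIO-stz gave 0. Same-numbered liver and intestine libraries correlated from -0.0068 to 0.246 over 10 obese pairs (5 over 0.1, 6 best with their own number). Over 9 DIO-stz pairs the range was -0.409 to 0.813 (5 over 0.1, 3 best with their own number). Whether a number marks the same rat in both tissues is not certain, and the main fits did not take the numbers as pairs.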
